A study of Homo sapiens with 4 samples.

Results

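The 4 HOX gene clusters of HEK293 cells were examined for where their transcripts end and how many 3′ ends they gave. Every 3′ end position of 4 A-seq libraries that lay in 1 of 4 hg19 windows was taken, on both strands. These windows were HOXA on chromosome 7 from 27130000 to 27290000, HOXB on chromosome 17 from 46600000 to 46815000, HOXC on chromosome 12 from 54330000 to 54452000 and HOXD on chromosome 2 from 176945000 to 177060000. They held 2798 of the 1749181 positions of the series, with 991 in HOXA, 704 in HOXB, 448 in HOXC and 655 in HOXD. The choice of positions used coordinates alone and no read count. The windows themselves were chosen with earlier results of these data known.

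A-seq sequences the ends of polyadenylated RNA next to the poly(A) tail, so a read marks a cleavage position. HEK293 is a line derived from human embryonic kidney. Each group was 1 library: cells given siRNA against CF Im 68, cells given siRNA against CstF-64, cells given a scrambled control siRNA, and cells given no siRNA. The siRNAs were delivered with a lipid reagent and the transfected cells were harvested after 3 days. The comparisons ask how losing either factor bears on poly(A) site choice and on transcript level. Without replicates the spread between cultures is unknown, and a test on the reads of a pair of libraries compares those libraries and not the conditions. The transcripts targeted by the siRNAs were not analysed here.

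HOX genes encode homeodomain transcription factors that set position along the body axis. They sit in a tight row within each cluster, are transcribed in 1 common direction, and are switched on in an order that follows their place in the row. In RefSeq (GRCh38.p14) the 4 clusters hold 39 HOX genes. With rising coordinate, HOXC begins at HOXC13 and HOXD at HOXD13. HOXA and HOXB genes are read from the minus strand and HOXC and HOXD genes from the plus strand; this is called the HOX strand below. The opposite strand is known to carry long noncoding RNAs such as HOTAIR in HOXC and HOTTIP in HOXA. Sites are given by hg19 position and were not assigned to single genes, because no annotation of that build was used here.

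CF Im 68 belongs to cleavage factor I, a complex that recognises UGUA motifs ahead of the cleavage position. CstF-64 contacts RNA for the cleavage stimulation factor at U-rich and GU-rich stretches past that position. The siRNA strands that define the depleted groups are shown as the submitters give them, 5′ to 3′ and in lower case, with n for the unspecified first bases.
CF Im 68 siRNA: nngaccgagauuacauggaua
CstF-64 siRNA: nnccugaaugggcgcgaauuc

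The HOX windows took a small part of each library. They held 22084 of 12792623 reads after CF Im 68 siRNA, 13299 of 7343112 after CstF-64 siRNA, 28902 of 13443454 after control siRNA and 34748 of 15806975 without siRNA. Scaled to library size in the usual unit (RPM), that was 1726, 1811, 2150 and 2198 RPM in the same order. Positions within 25 nt were joined into sites, and the 110 sites with a mean of at least 1 RPM held 94.4 to 96.3% of the HOX reads. The 934 position groups under that level held 4364 of 99033 reads; the lowest kept site had a mean of 1.03 RPM and the highest left out 0.984 RPM. The sites formed 62 loci, each the most used site with the others of its strand within 3000 nt, of which 43 lay on the HOX strand and 19 on the opposite strand. Oligo-dT priming inside A-rich transcript stretches was not separated from true ends.

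Reads of 3′ ends were spread over all 4 clusters. After control siRNA the windows gave 696 RPM in HOXA, 549 in HOXB, 473 in HOXC and 433 in HOXD, both strands together. The median HOX locus had 12.04 RPM after CF Im 68 siRNA, 16.1 with CstF-64 siRNA, 16.6 after control siRNA and 13.4 without siRNA, against 7.11, 5.31, 6.55 and 5.82 RPM over all loci in the same order. The HOX sites were built much like others: the median site spanned 10 cleavage positions with 62.3% of reads at the leading one, against 8 positions and 66.3% over all sites.

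Cluster totals differed between clusters after CF Im 68 siRNA. HOXC had 284 RPM after CF Im 68 siRNA, 336 with CstF-64 siRNA, 473 after control siRNA and 454 without siRNA. The ratio of CF Im 68 siRNA to control siRNA was 0.60 in HOXC, with an exact 95% interval of 0.576 to 0.625, and that to no siRNA 0.625. HOXB gave 353 RPM after CF Im 68 siRNA, 470 with CstF-64 siRNA, 549 after control siRNA and 535 without siRNA. Its ratio of CF Im 68 siRNA to control siRNA was 0.644 (0.621 to 0.669), so in both clusters the CF Im 68 library was the lowest of the 4 and the control libraries the highest. These intervals cover counting error only. In these bulk samples, fewer cells expressing a gene and less RNA per cell cannot be told apart.

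After CF Im 68 siRNA, HOXA and HOXD stood nearer to the controls. HOXA had 676 RPM after CF Im 68 siRNA, 662 with CstF-64 siRNA, 696 after control siRNA and 697 without siRNA, a CF Im 68 to control siRNA ratio of 0.972 (0.944 to 1.001). HOXD had 413 RPM after CF Im 68 siRNA, 343 with CstF-64 siRNA, 433 after control siRNA and 511 without siRNA. The HOXD controls differed from each other by a ratio of 0.846, control siRNA over no siRNA, where the totals of the other clusters were at 0.998 to 1.04. In HOXB this ratio was 1.11 on the HOX strand and 0.819 on the opposite strand, which offset each other in the total. The order of the clusters after CstF-64 siRNA depended on the control. Relative to control siRNA the CstF-64 library was at 0.711 in HOXC, 0.792 in HOXD, 0.858 in HOXB and 0.951 in HOXA. Relative to no siRNA it was at 0.67 in HOXD, 0.74 in HOXC, 0.878 in HOXB and 0.949 in HOXA.

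**Figure D1:**
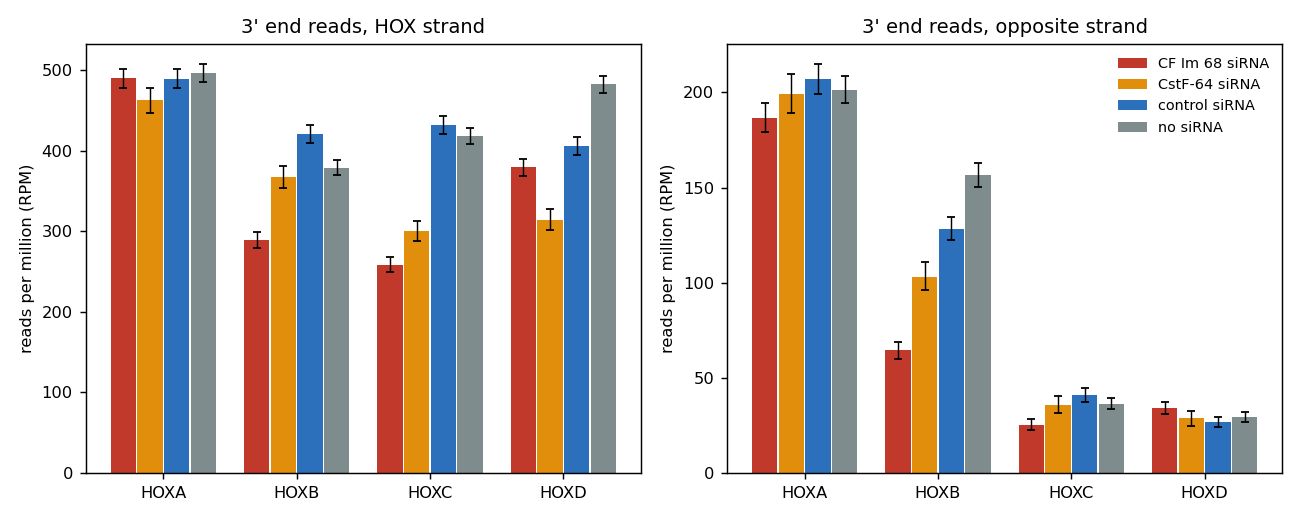
RPM (y axis) in each HOX cluster (x axis) on the HOX strand (left) and the opposite strand (right), with 1 bar per library and exact Poisson 95% intervals as error bars. The CF Im 68 siRNA bars of HOXB and HOXC are the lowest of their 4 on both strands, and the opposite strand of HOXB has 64.4 RPM after CF Im 68 siRNA against 157 RPM without siRNA.

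Single loci weighed heavily in these totals. Without its most used locus, HOXC had a CF Im 68 to control siRNA ratio of 0.745 and a CstF-64 to control siRNA ratio of 0.932. Against no siRNA the HOXC remainder was at 0.919 after CF Im 68 siRNA and at 1.15 after CstF-64 siRNA. HOXD turned to 1.11 for CF Im 68 siRNA and 1.08 for CstF-64 siRNA over control siRNA once its most used locus was left out, but was at 0.879 and 0.854 over no siRNA. HOXA without its most used locus was at 0.983 and 0.979 over control siRNA, but turned to 1.15 for both depletions over no siRNA. HOXB stayed below both controls, at 0.710 and 0.816 over control siRNA and 0.673 and 0.774 over no siRNA. The controls themselves differed in these remainders. Control siRNA over no siRNA was at 1.17 in HOXA, 0.949 in HOXB, 1.23 in HOXC and 0.790 in HOXD. The values of 1.15 over no siRNA in HOXA and HOXC were thus no larger than the difference between the controls.

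The strand opposite to the HOX genes carried a different part of each cluster. In HOXA it took 27.6% of reads after CF Im 68 siRNA, 30.1% with CstF-64 siRNA, 29.7% after control siRNA and 28.9% without siRNA. In HOXC it took 7.99 to 10.7% and in HOXD 5.72 to 8.34% over the 4 libraries. The opposite strand of HOXB had 64.4 RPM after CF Im 68 siRNA, 103 with CstF-64 siRNA, 128 after control siRNA and 157 without siRNA. Its CF Im 68 to control siRNA ratio was 0.502 (0.462 to 0.546) and that to no siRNA 0.411, so the CF Im 68 library was lowest. The counting intervals of control siRNA (122 to 134 RPM) and no siRNA (150 to 163 RPM) did not overlap each other either. Separate intervals therefore do not mark a depletion here.

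**Figure D2:**
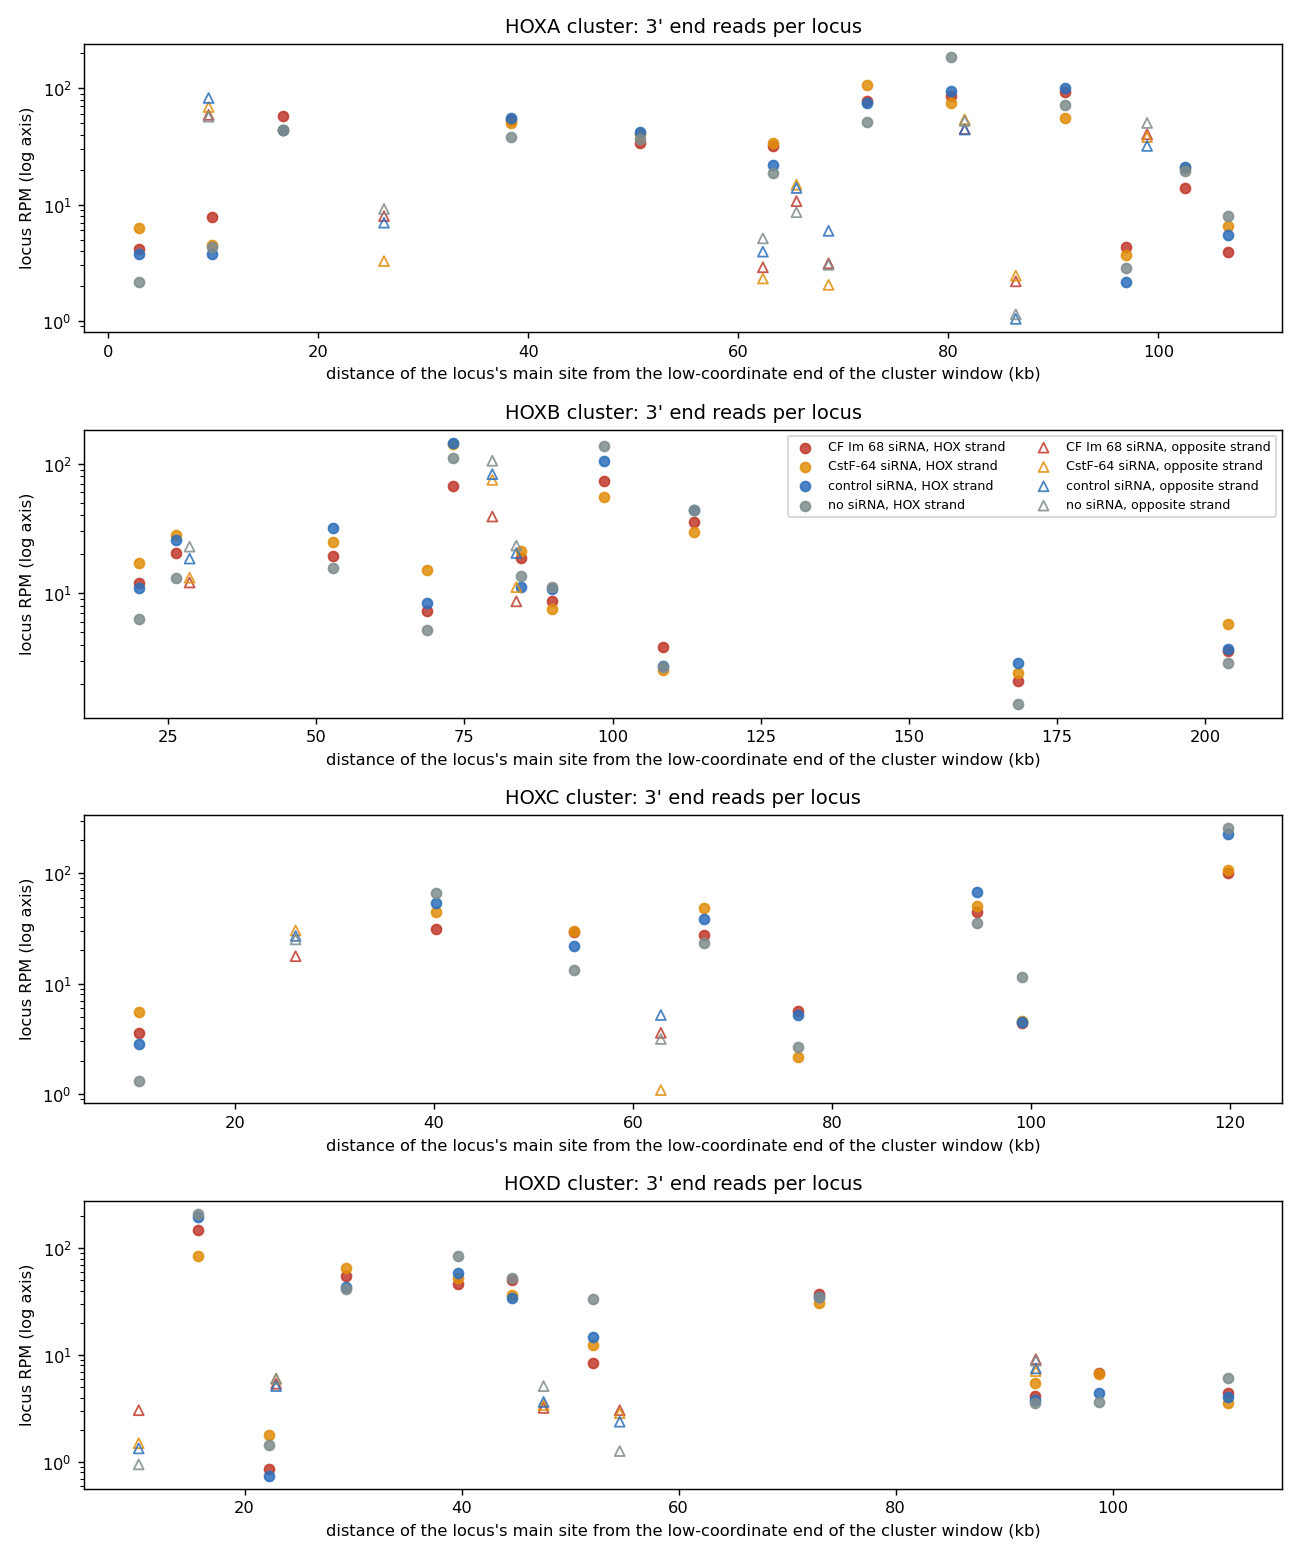
RPM of each HOX locus (y axis, log scale) against the distance in kb of its main site from the low-coordinate end of the cluster window (x axis), with filled circles for the HOX strand, open triangles for the opposite strand and 1 colour per library. The most used loci stand at the high-coordinate end of HOXC and near the low-coordinate end of HOXD, with 101 to 255 RPM and 85.0 to 210 RPM over the 4 libraries.

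Of the 60 HOX loci that had 50 or more reads in all, 3 were lower by at least 2-fold after CF Im 68 siRNA relative to both controls on the log2(RPM + 1) scale and 0 were higher. Over all 20844 such loci, 1.85% were lower and 5.99% higher by that rule. After CstF-64 siRNA 2 HOX loci were lower and 0 higher, with 6% lower and 1.69% higher over all loci. The counts are small, and the median HOX locus moved little: its log2 ratio to control siRNA was -0.08 in the CF Im 68 library, against 0.02 over all loci, and -0.03 in the CstF-64 library, against -0.19 over all loci. Scaling by TMM factors brought the median over all loci for CstF-64 siRNA over control siRNA to -0.03.

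The most used HOX locus was low after both depletions. The locus at position 54449814 on chromosome 12, plus strand, lies at the high-coordinate end of HOXC, where HOXC4, HOXC5 and HOXC6 are listed last in RefSeq. It had 101 RPM after CF Im 68 siRNA (1292 reads), 107 with CstF-64 siRNA (789 reads), 228 after control siRNA (3060 reads) and 255 without siRNA (4037 reads). Both depleted libraries lay far below both controls. The log2 ratios for CF Im 68 siRNA were -1.16 over control siRNA and -1.33 over no siRNA, and for CstF-64 siRNA -1.08 and -1.24. With TMM scaling the CstF-64 value over control siRNA was -0.89, short of 2-fold, and with DESeq2 size factors -0.85.

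The main locus of HOXD was low in the CstF-64 library. It lies at position 176960672 on chromosome 2, plus strand, at the HOXD13 end of the row. It had 148 RPM after CF Im 68 siRNA, 85.0 with CstF-64 siRNA, 194 after control siRNA and 210 without siRNA. The CstF-64 to control siRNA ratio of counts scaled to depth was 0.438 (0.40 to 0.478), and the log2 ratios were -1.18 over control siRNA and -1.29 over no siRNA. Under TMM scaling the first of these was -0.999 and under DESeq2 size factors -0.96, both just short of the 2-fold limit.

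The other changed loci, both after CF Im 68 siRNA, lay on the opposite strand of HOXB. The locus at 46679700 on chromosome 17, plus strand, had 39.1 RPM after CF Im 68 siRNA, 74.9 with CstF-64 siRNA, 82.9 after control siRNA and 105.1 without siRNA. The locus at 46683749 on the same strand had 8.68 RPM after CF Im 68 siRNA, 11.2 with CstF-64 siRNA, 20.5 after control siRNA and 23.3 without siRNA. Their CF Im 68 to control siRNA ratios were 0.472 (0.424 to 0.525) and 0.424 (0.337 to 0.531). The nearby minus-strand locus at 46673114, the most used of HOXB, had 66.9 RPM after CF Im 68 siRNA, 141 with CstF-64 siRNA, 145 after control siRNA and 110 without siRNA. Its log2 ratio was -1.10 over control siRNA but -0.71 over no siRNA, so it did not count as changed.

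**Figure D3:**
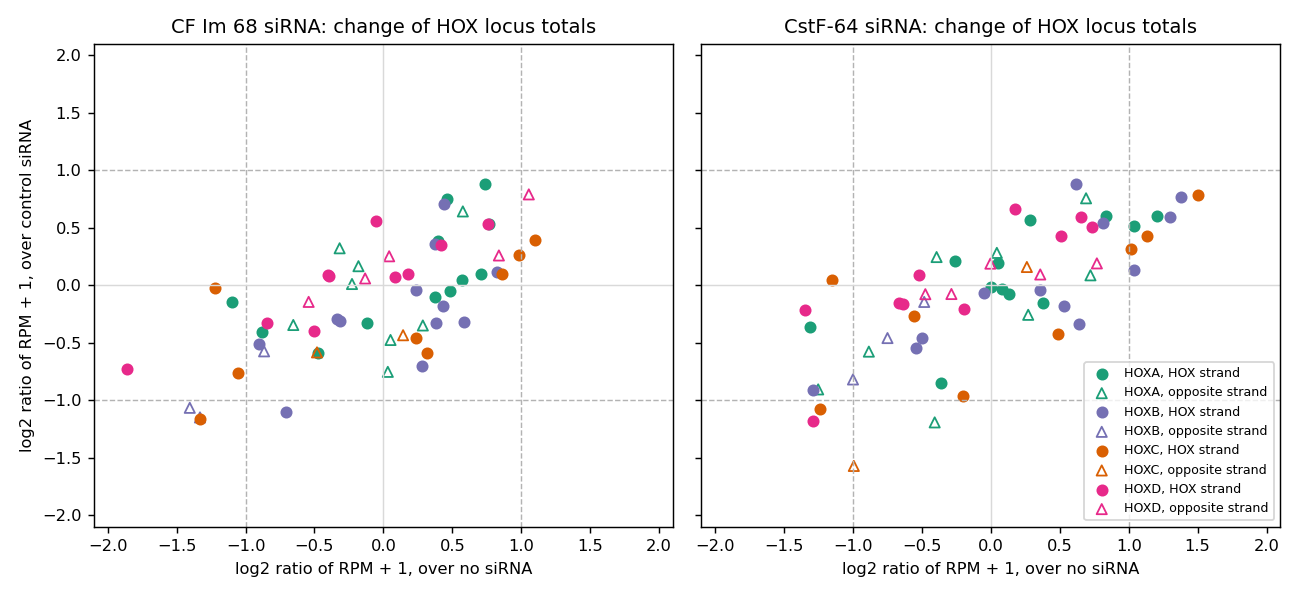
Log2 ratio of RPM + 1 over control siRNA (y axis) against that over no siRNA (x axis) for the 60 HOX loci, after CF Im 68 siRNA (left) and CstF-64 siRNA (right), with 1 colour per cluster, open triangles for the opposite strand and dashed lines at 2-fold. A locus in the lower left corner is at least 2-fold lower than both controls, which holds for 3 loci on the left and 2 on the right.

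Other abundant loci varied without a common order of libraries. The most used HOXA locus, at 27210226 on chromosome 7, minus strand, had 86.4 RPM after CF Im 68 siRNA, 74.2 with CstF-64 siRNA, 95.7 after control siRNA and 186 without siRNA. The no siRNA library alone stood apart there. The next HOXA loci, at 27221136 and 27202221, spanned 55.4 to 100.5 and 51.7 to 108 RPM. In HOXB the locus at 46698521 was low in both depleted libraries, with 73.2 RPM after CF Im 68 siRNA, 55.6 with CstF-64 siRNA, 105.03 after control siRNA and 138 without siRNA. In HOXC the loci at 54424607 and 54370202 spanned 35.5 to 67.5 and 31.4 to 66.4 RPM. Scaled to library size, reads at 54370202 were lower in both depleted libraries than in both controls, as at the most used HOXC locus. At 54424607 the no siRNA library was the lowest. In HOXD the loci at 176984665 and 176974362 spanned 46.7 to 84.5 and 41.4 to 65.8 RPM. The most used opposite-strand loci besides that of HOXB were at 27139585 in HOXA, with 57.1 to 82.6 RPM, at 54356098 in HOXC, with 17.7 to 30.4 RPM, and at 177037926 in HOXD, with 7.08 to 9.15 RPM.

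The control libraries differed from each other at some of these loci. By the same 2-fold rule, 2 HOX loci were lower after control siRNA than without siRNA and 0 were higher, with 1.92% lower and 5.19% higher over all loci. The locus at 176997077 on chromosome 2 had 14.7 RPM after control siRNA and 33.5 without siRNA. The locus at 54429143 on chromosome 12 had 4.46 RPM after control siRNA and 11.5 without siRNA.

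Poly(A) site choice was next compared within loci. Of the 62 loci, 29 had at least 2 sites that each held 5% or more of the mean locus RPM, and in 22 of these the 2 most used sites had at least 50 reads together in every library. Of the 22, 17 lay on the HOX strand and 5 on the opposite strand. The proximal share is the percentage of those reads at the site on the 5′ side, which gives the shorter end where both sites belong to the same transcript. Since sites were not assigned to genes, the 2 sites of a pair may also end different transcripts. The median share over the 22 pairs was 36.8% after CF Im 68 siRNA, 41.6% with CstF-64 siRNA, 33.8% after control siRNA and 30.6% without siRNA, against 52.2, 43.2, 41.3 and 41.7% over all 4244 tested pairs in the same order.

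A locus was counted as moved if the two-sided Fisher's exact test against control siRNA had a Benjamini-Hochberg adjusted p below 0.05 over all tested loci and the share differed by at least 10 percentage points from both controls in 1 direction. After CF Im 68 siRNA 3 of the 22 HOX loci moved proximal and 0 moved distal. Over all loci 23.6% moved proximal and 2.12% distal. After CstF-64 siRNA 1 HOX locus moved proximal and 0 distal, with 7.16% and 3.32% over all loci. Most HOX pairs stayed under the limits, as did most pairs over all loci. Over the HOX pairs the change after CF Im 68 siRNA against control siRNA had a median of 3.23 points. It ran from -10.8 to 27.0 points, with 13 pairs above 0 and 9 below. The median over all pairs was 5.10 points.

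**Figure D4:**
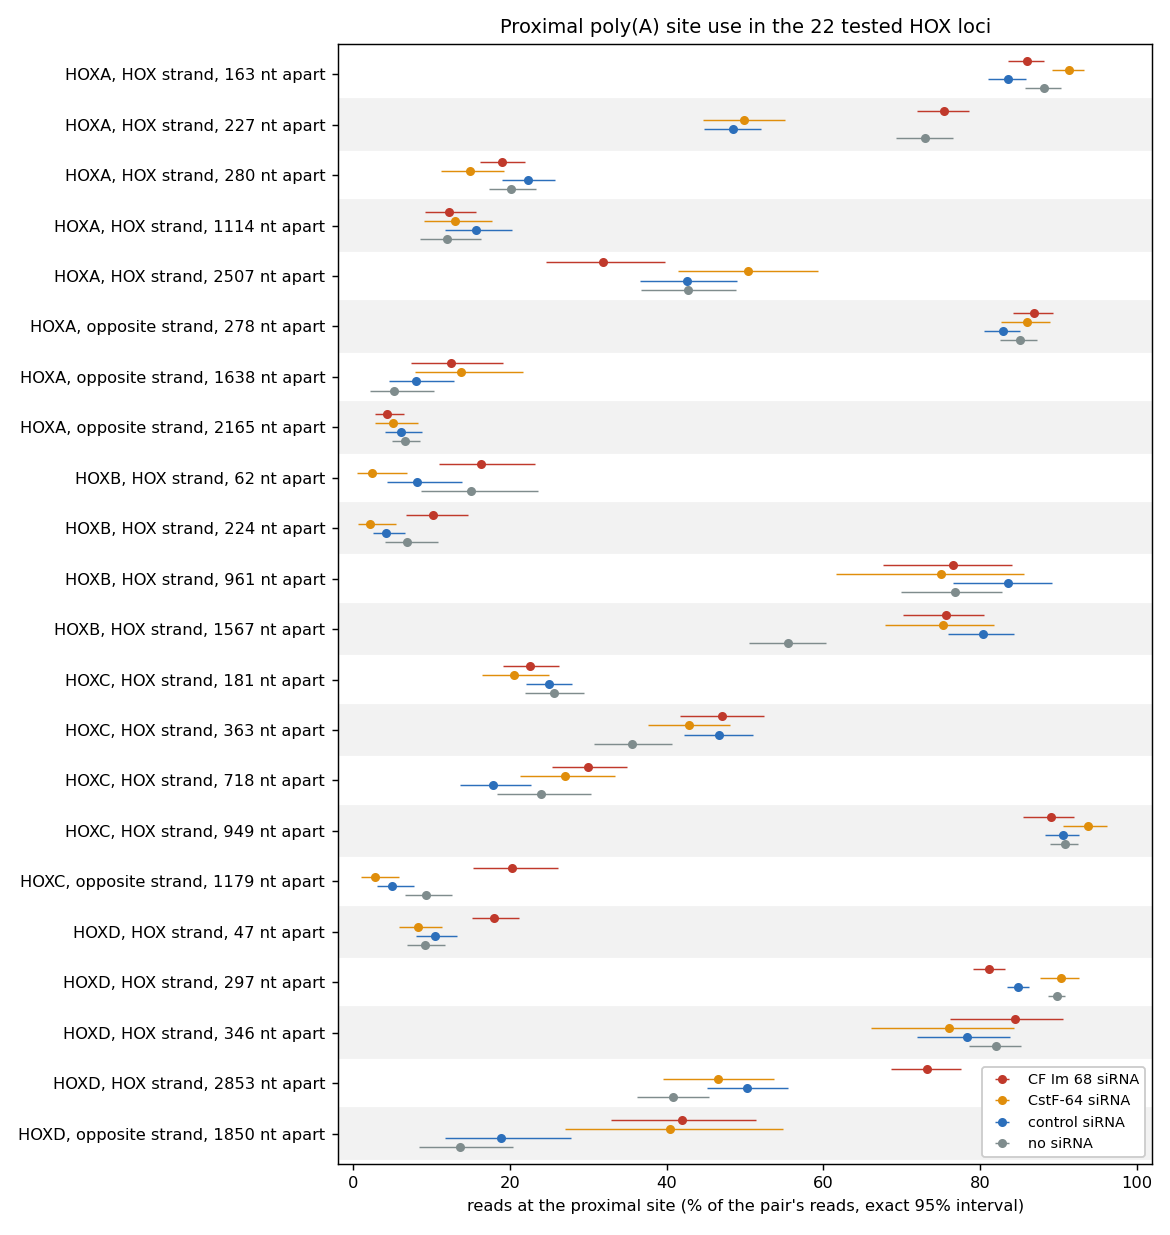
Percentage of pair reads at the proximal site (x axis) with exact Clopper-Pearson 95% intervals in the 22 tested HOX loci (y axis, by cluster, strand and distance between the sites), with 1 colour per library. The CF Im 68 siRNA point lies to the right of both control points by at least 10 points in 3 rows, at distances of 1179, 2853 and 1850 nt.

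The move on the HOX strand was in HOXD, between sites 2853 nt apart at 177017954 and 177020807 on chromosome 2. The proximal share was 73.3% (68.7 to 77.5%) after CF Im 68 siRNA, 46.5% with CstF-64 siRNA, 50.3% (45.1 to 55.4%) after control siRNA and 40.7% without siRNA. The CF Im 68 library alone stood apart. Its difference was 23.001 points from control siRNA, with an adjusted Fisher's exact p of 2.46e-10, and 32.5 points from no siRNA, with an adjusted p of 4.1e-21. The locus total was nearly level, with 37.1 RPM after CF Im 68 siRNA, 30.5 with CstF-64 siRNA, 35.3 after control siRNA and 35.0 without siRNA. The read-weighted mean end of the locus, counted from its most 5′ site, lay at 1065 nt in the CF Im 68 library, 1649 nt in the CstF-64 library, 1701 nt in the control siRNA library and 1887 nt without siRNA.

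The other loci that moved were on the opposite strand. In HOXC, sites 1179 nt apart at 54357277 and 54356098 on chromosome 12, minus strand, had a proximal share of 20.3% (15.2 to 26.1%) after CF Im 68 siRNA, 2.69% with CstF-64 siRNA, 4.95% (2.96 to 7.70%) after control siRNA and 9.30% without siRNA. Only the CF Im 68 library lay above both controls here. The difference was 15.3 points from control siRNA and 11.0 from no siRNA, with adjusted Fisher's exact p-values of 7.97e-08 and 4.69e-04. The proximal site held 46 reads after CF Im 68 siRNA, 6 with CstF-64 siRNA, 18 after control siRNA and 37 without siRNA. Scaled to library size, the total of this HOXC locus was lowest in the CF Im 68 library. In HOXD, sites 1850 nt apart at 177039776 and 177037926 on chromosome 2, minus strand, had a proximal share of 41.9% (32.8 to 51.4%) after CF Im 68 siRNA, 40.4% (27.0 to 54.9%) with CstF-64 siRNA, 18.8% (11.7 to 27.8%) after control siRNA and 13.6% (8.37 to 20.4%) without siRNA. Both depleted libraries were high at this pair, which rested on 52 to 140 reads a library. The adjusted Fisher's exact p against control siRNA was 7.31e-04 for CF Im 68 siRNA and 0.0303 for CstF-64 siRNA. The difference between the depleted libraries was 1.5 points, with an adjusted p of 0.935, which does not show that they act alike.

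All 3 moves were between distant sites. Pairs 1001 to 3000 nt apart moved proximal after CF Im 68 siRNA in 3 of 8 HOX loci, against 35.1% of 1609 loci overall. None of 10 HOX pairs at 201 to 1000 nt did so, against 22.2% of 1543, and none of 4 at 26 to 200 nt, against 8.61% of 1092. With so few HOX pairs in each class, nothing is read from the difference between these shares.

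Several pairs differed from 1 control only or by less than 10 points. In HOXA the sites 227 nt apart at 27168372 and 27168145 had a proximal share of 75.4% after CF Im 68 siRNA, 49.9% with CstF-64 siRNA, 48.4% after control siRNA and 73.0% without siRNA. The CF Im 68 library was 27.0 points above control siRNA (adjusted Fisher's exact p 8.04e-25) but 2.43 points from no siRNA (adjusted p 0.415). In HOXC the sites 718 nt apart at 54383343 and 54384061 had 29.97% after CF Im 68 siRNA, 27.0% with CstF-64 siRNA, 17.8% after control siRNA and 23.9% without siRNA, which was 12.2 points above control siRNA and 6.05 above no siRNA. In HOXD the close sites at 176974315 and 176974362, 47 nt apart, had 18.0% after CF Im 68 siRNA, 8.28% with CstF-64 siRNA, 10.4% after control siRNA and 9.08% without siRNA; the adjusted p against control siRNA was 6.10e-04, with a difference of 7.61 points, under the limit.

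The most negative change of the 22 pairs was in HOXA, where the sites 2507 nt apart at 27235023 and 27232516 had a proximal share of 31.8% after CF Im 68 siRNA, 50.4% with CstF-64 siRNA, 42.6% after control siRNA and 42.7% without siRNA. The difference of -10.8 points between CF Im 68 siRNA and control siRNA had an adjusted Fisher's exact p of 0.0666 and did not pass. Between the depleted libraries the difference was -18.6 points, with an adjusted p of 0.0054.

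Set directly against the CstF-64 library, by the test and the 10-point limit for that pair of libraries alone, the CF Im 68 library was more proximal at 4 HOX loci and more distal at 1, with 25.2% and 4.05% over all loci. The 4 were the pairs at 27168372, 54357277 and 177017954 and the HOXB pair at 46620083 and 46620021, 62 nt apart. The HOXB pair had 16.3% after CF Im 68 siRNA, 2.40% with CstF-64 siRNA, 8.16% after control siRNA and 15.0% without siRNA. At it and at 27168372 the CF Im 68 library was close to no siRNA.

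The control libraries differed from each other by the same rule at 3 HOX loci, 2 with a higher and 1 with a lower proximal share after control siRNA, against 9.61% and 10.9% over all loci. The HOXB pair at 46713752 and 46712185, 1567 nt apart, had 75.6% after CF Im 68 siRNA, 75.3% with CstF-64 siRNA, 80.3% after control siRNA and 55.5% without siRNA. Here the no siRNA library alone was low, and control siRNA was 24.8 points above it (adjusted Fisher's exact p 2.57e-12). The HOXC pair at 54396754 and 54397117 had 46.6% after control siRNA and 35.6% without siRNA. The lower pair was that at 27168372, where control siRNA was 24.6 points below no siRNA.

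The other 12 tested pairs stayed within 10 points of both controls after both depletions. They included abundant pairs such as that at 176960672 and 176960969 in HOXD, with 81.2% after CF Im 68 siRNA, 90.3% with CstF-64 siRNA, 84.9% after control siRNA and 89.8% without siRNA. The pair at 54370202 in HOXC had 89.0% after CF Im 68 siRNA, 93.8% with CstF-64 siRNA, 90.6% after control siRNA and 90.9% without siRNA. The pair at 27226748 and 27228913 on the opposite strand of HOXA, 2165 nt apart, had 4.27% after CF Im 68 siRNA, 5% with CstF-64 siRNA, 6.05% after control siRNA and 6.52% without siRNA.

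The 6 loci with 3 or more kept sites hold more than a pair can show. The main locus of HOXD had a further site at 176959630, 1042 nt on the 5′ side of 176960672, which was outside the pair and was looked at after its values were seen. It had 34.4 RPM after CF Im 68 siRNA (440 reads), 4.77 with CstF-64 siRNA (35 reads), 4.91 after control siRNA (66 reads) and 6.90 without siRNA (109 reads). Its share of the locus was 23.3% (21.4 to 25.3%) after CF Im 68 siRNA, 5.61% (3.94 to 7.71%) with CstF-64 siRNA, 2.53% (1.96 to 3.20%) after control siRNA and 3.29% (2.71 to 3.96%) without siRNA. The CF Im 68 library stood far above the other libraries. The site passed the 5% limit on the mean of all libraries through that library, since its share in both controls was lower, and so it carries no test. The main site took 62.3% of the locus after CF Im 68 siRNA, 85.3% with CstF-64 siRNA, 82.7% after control siRNA and 86.8% without siRNA.

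With the most 5′ kept site set against all other kept sites of a locus, the same 3 HOX loci moved proximal after CF Im 68 siRNA and 0 moved distal. The main HOXD locus is left out of this count for the reason just given. Over all 4380 loci the shares were 26% and 1.76%, and these also include sites kept through a depleted library, so nothing is read from the difference. After CstF-64 siRNA 1 HOX locus moved proximal and 0 distal, against 5.82% and 2.74%.

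**Figure D5:**
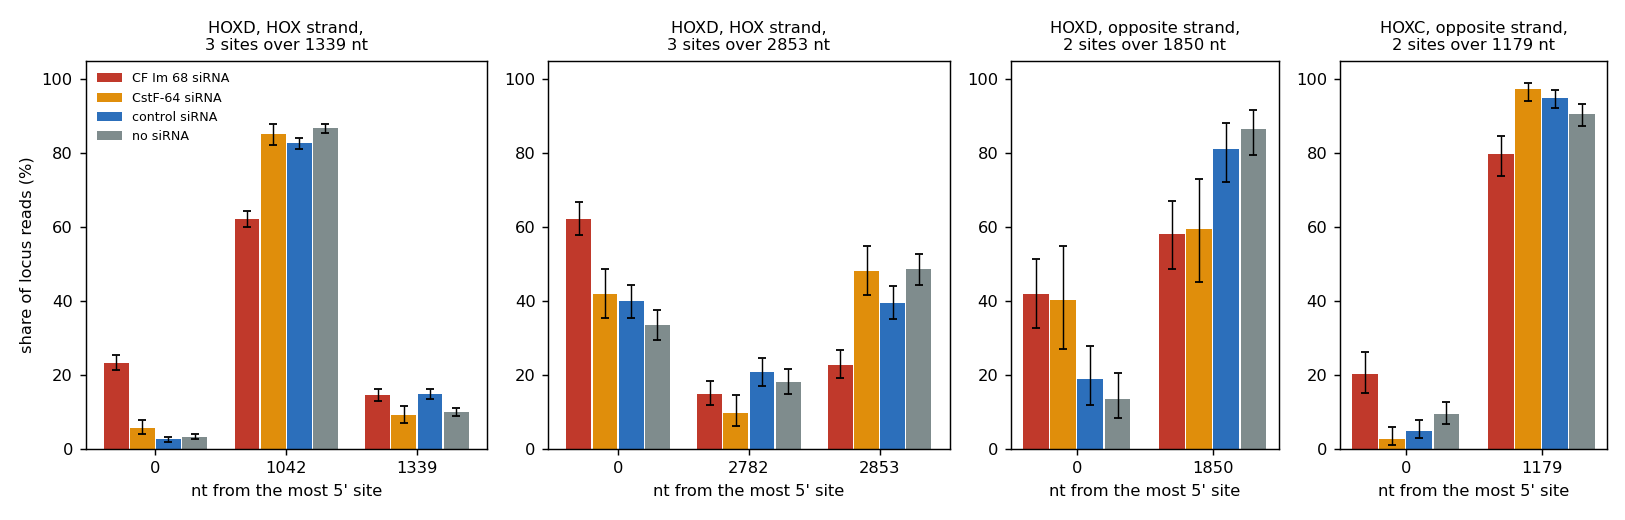
Share of locus reads at each kept site (y axis, percent, with exact 95% intervals) against the distance in nt from the most 5′ site (x axis), with 1 panel per locus and 1 bar per library, for the 4 loci chosen because their most 5′ site had a share at least 10 points above both controls after CF Im 68 siRNA. That choice fixes the order of the CF Im 68 and control bars at the first site, where CF Im 68 siRNA reaches 23.3, 62.3, 41.9 and 20.3% from left to right, and the panels describe how the reads divide over the sites.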

How the data were processed

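A-seq was run on HEK293 cells in 4 libraries, 1 per group. The deposited files hold read counts per 3′ end position and strand, with no normalization recorded, per the file columns. Positions are 1-based and refer to hg19 (GRCh37), as named in the submitters' processing notes. The aligner is not given in the sources used here, nor is how PCR copies and multiply mapped reads were handled. Running numbers of the deposited positions skip 7.47 to 7.63% in the HOX windows and 10.2 to 12.2% in whole libraries, so positions had been removed, and the rule is not given in the sources used here.

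Libraries were scaled by their total reads, 7343112 to 15806975. Positions within 25 nt were joined to the most used one, and groups with a mean of at least 1 RPM on chromosomes 1 to 22 and X became sites. Loci used a window of 3000 nt, because HOX genes lie a few kb apart. A site was kept if it held at least 5% of its locus by mean RPM, a mean that includes the depleted libraries. The 2 most used formed a pair, tested with at least 50 reads in every library. Fisher's exact test was adjusted over 4244 pairs (scipy 1.17.1). Locus totals are log2(RPM + 1) ratios in loci of at least 50 reads, without a test. TMM factors came from edgeR 4.0.16 and size factors from DESeq2 1.42.0. Intervals are exact at 95%. PCR reads without molecular identifiers are not independent molecules. The steps were tested on simulated reads with counting error only, which cannot show how calls vary between cultures.

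The rule for named loci took all that changed, moved or passed the pair filter, of which the less informative are given as a count, the 3 most used of each cluster, and the most used opposite-strand locus. The windows, lists and rules were chosen with earlier results of these data known. Counts over HOX genes and noncoding RNAs by name, and sequence features of the sites, were planned and not analysed here, since no genome or annotation of hg19 was used.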

Additional observations from a re-analysis of the deposited data

How the results depend on the processing

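No paired analysis was possible because each group has 1 library. Of the alternative values for the counts and cluster ratios, 56 kept their direction and stayed near the reported value, 35 moved and 5 turned direction. Loci moved proximal after CF Im 68 siRNA were 1 with a locus window of 1.5 kb, which leaves no tested pair at 177017954 or 177039776, 2 with clustering within 10 nt, which leaves none at 177039776, 5 against control siRNA alone and 5 against no siRNA alone. Loci moved distal after CF Im 68 siRNA were 1 of 26 with a window of 10 kb, against 2.63% over all loci. With clustering within 50 nt it was 1 of 22, against 2.11%. Against no siRNA alone it was 1 of 22, with 8.13% over all loci. Loci moved proximal after CstF-64 siRNA were 2 of 25 with clustering within 10 nt, against 6.89% over all loci. Against no siRNA alone 2 of 22 moved proximal, with 17.6% over all loci. Distal moves after CstF-64 siRNA were 1 of 26 with a window of 10 kb (3.59% over all loci) and 1 of 19 with 1.5 kb (3.32%). Against no siRNA alone 2 of 22 moved distal, with 13.5% over all loci. With sites chosen on the control libraries, 3 of 20 HOX loci moved proximal after CF Im 68 siRNA, against 20.0% over all loci. Loci higher after CF Im 68 siRNA were 1 of 61 with clustering within 50 nt, against 6.00% over all loci. With a pseudocount of 0.1 RPM it was 1 of 60, against 8.23%, and without the filter on low sites 1 of 68, against 5.89%. After CstF-64 siRNA 1 of 60 was higher with that pseudocount, against 2.89% over all loci. Loci lower after CF Im 68 siRNA were 2 of 42 with a window of 10 kb, against 1.86% over all loci. With that window 46683749 no longer headed a locus. Loci lower after CstF-64 siRNA were 0 of 60 with TMM factors (4.65% over all loci) and 0 of 60 with DESeq2 size factors (4.40%). With the pseudocount of 0.1 RPM they were 4 of 60, against 11.5% over all loci.

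The CF Im 68 to control siRNA ratio of the cluster totals was 0.929 in HOXA, 0.616 in HOXB, 0.573 in HOXC and 0.912 in HOXD with TMM factors, and 0.930, 0.616, 0.574 and 0.913 with DESeq2 size factors. The CstF-64 to control siRNA ratio was 1.08 in HOXA, 0.976 in HOXB, 0.809 in HOXC and 0.902 in HOXD with TMM factors, and 1.11, 1.003, 0.831 and 0.927 with DESeq2 size factors, so that HOXA turned above 1 under both and HOXB under the second. Without the most used locus, the CF Im 68 ratio was 0.710 in HOXB, 0.745 in HOXC and, turned above 1, 1.11 in HOXD; the CstF-64 ratio was 0.816 in HOXB, 0.932 in HOXC and, turned above 1, 1.08 in HOXD. Apart from the scaling itself and the sites or libraries each alternative drops, the cause was not tested. The comparisons with a single control, the first-site comparison and the totals without the most used locus were chosen after seeing the data. The CstF-64 library, with 7343112 reads, is the shallowest and limits which pairs could be tested.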
